A study of Mus musculus with 20 samples.

Results

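The phospholipid scramblase genes Plscr1, Plscr1l1, Plscr3 and Plscr4 were examined in the cecum of mice fed a Western diet with raw potato starch. The 4 genes were taken from a table of 19887 genes by matching the Ensembl identifiers to GENCODE symbols, and all 4 were among the 15348 genes with enough counts to be tested. Plscr1 and Plscr1l1 were selected on their lower read counts with increasing starch. Their values and threshold calls in those comparisons are therefore given as a description, and nothing is read from the calls. Plscr3 and Plscr4 were added as relatives of these genes. The other Plscr genes in the table, Plscr2 and Plscr5, are given where they help to place the members.

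Phospholipid scramblases of this family are membrane proteins with a calcium-binding segment near a single membrane-spanning helix. They were named for their ability to move phospholipids such as phosphatidylserine between the leaflets of a membrane when calcium rises, although the scrambling that exposes phosphatidylserine on blood platelets and dying cells is now attributed to proteins of the TMEM16 and XKR families. PLSCR1 is also a well-known interferon-stimulated protein that can enter the nucleus and restricts several viruses, and PLSCR3 resides in mitochondria, where cardiolipin is its substrate.

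C57BL/6 mice were placed on the Total Western Diet (TWD), a rodent diet modelled on the nutrient intake of people in the United States, at 3 weeks of age and fed it for 6 weeks. They then received the TWD with 0, 2, 5 or 10% resistant potato starch (RPS), a starch that escapes digestion in the small intestine, for a further 3 weeks, so that all mice, the 0% RPS controls included, carried the same Western diet background. Each group held 5 mice, and a section of cecum from each mouse gave 1 library of single-end reads from poly(A) RNA. Total counts ranged from 14967798 to 42687283 per mouse, and p-values measure only the spread between these mice. All 9 epithelial markers, from Epcam to Cldn7, averaged at least 1 CPM (read counts relative to the TMM-scaled library size) on every diet, with a summed level of 11372 to 17871 CPM, as did all 7 smooth muscle markers, with a sum of 2620 to 10279 CPM, so the tissue held muscle as well as mucosa. In such bulk tissue, fewer cells of a type and less RNA per cell cannot be told apart.

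On GRCm39, Plscr1 (ENSMUSG00000032369) lies at chr9:92131759-92154621 and Plscr1l1 (ENSMUSG00000074139) at chr9:92191405-92239932, both on the plus strand. Plscr4 (ENSMUSG00000032377) lies farther along the same strand at chr9:92339414-92375563. Plscr5, Plscr1, Plscr2, Plscr1l1 and Plscr4 follow each other in this order among the protein-coding genes of the table. Plscr3 (ENSMUSG00000019461) stands apart from this cluster at chr11:69737059-69742884, between Tmem256 and Tnk1. The coding sequences of the canonical transcripts of Plscr1 and Plscr1l1, of 984 and 696 bases, were identical at 75.7% of their 696 aligned positions, and the longest stretch without a difference was 20 bases. Plscr1 was closer to Plscr2 (83.3% identity, longest identical stretch 37 bases) and farther from Plscr4 (62.8%) and Plscr3 (61.8%). No stretch of 50 bases was shared between any pair of the 6 Plscr transcript sets. Of the 2972 different stretches of 50 bases in Plscr1 transcripts, 13.4% were also present in any other gene, on either strand. Gm5530, a processed pseudogene, held 10.0%, and the opposite-strand lncRNAs Gm67683 and Gm67689 held 1.14% and 2.19%. For Plscr1l1 the share with any other gene was 0.789%. Plscr3 shares 902 exon bases with Tnk1 on the opposite strand, and because the strand setting of the counting is not given in the sources used here, reads there may have been counted for either gene.

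The promoters of Plscr1 and Plscr1l1, the members that were lower together, are shown from 250 bases before to 50 bases after the start of the canonical transcript (GRCm39, plus strand, chr9:92131553-92131852 and chr9:92191171-92191470). Capitals mark a match to the STAT-binding GAS word TTCNNNGAA. Both strands were searched for this word and for the core of the interferon-stimulated response element (the word GAAA repeated after any 2 bases), TGANTCA (AP-1) and ACGTG (the hypoxia response core), and no matches overlapped.
Plscr1: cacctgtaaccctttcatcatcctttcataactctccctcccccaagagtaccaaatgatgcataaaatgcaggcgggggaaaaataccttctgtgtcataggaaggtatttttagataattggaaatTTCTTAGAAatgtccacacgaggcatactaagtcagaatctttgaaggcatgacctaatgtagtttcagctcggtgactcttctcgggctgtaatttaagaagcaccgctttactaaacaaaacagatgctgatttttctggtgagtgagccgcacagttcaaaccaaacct
Plscr1l1: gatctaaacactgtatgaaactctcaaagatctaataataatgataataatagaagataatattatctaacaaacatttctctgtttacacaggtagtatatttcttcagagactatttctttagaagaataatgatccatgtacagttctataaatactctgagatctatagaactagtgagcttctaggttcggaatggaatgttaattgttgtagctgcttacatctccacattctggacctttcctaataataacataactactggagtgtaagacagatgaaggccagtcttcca
The Plscr1 window held a single match to these words, a GAS word whose first base is at position -122 from the start site, and such a match was present in 7.97% of the 17681 promoters of protein-coding genes in the table. None of the 4 words was found in the windows of Plscr1l1, Plscr3 or Plscr4, while the response element core was present in 3.61%, TGANTCA in 6.15% and ACGTG in 22.9% of all promoters. These matches describe letters in a window and do not show binding. The Plscr1l1 window had a GC content of 32.3% and 1 CpG, that of Plscr1 41.7% and 6, that of Plscr4 41.0% and 5, and that of Plscr3 59.3% and 16.

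Plscr1 was by far the most abundant member. Per kilobase of exon, its level had a median of 84.4 CPM over the 20 mice, against 5.53 for Plscr4, 3.93 for Plscr3 and 2.06 for Plscr1l1. Plscr2 was lower still at 0.829 and Plscr5 at 0.131, the latter from only 1 to 12 counts per mouse, below the filter on low counts. The order of levels was not used to choose the genes and was tested between neighbours, except where it rests on the Plscr1l1 differences that the rule used. On the log2 scale Plscr1 exceeded Plscr4 by 3.93 ± 0.37 (SD, n = 20), in 20 of 20 mice (adjusted p = 6e-05, permutation test over 3 pairs, 2-sided, from the smallest p that the draws allow, 2e-05). Plscr4 exceeded Plscr3 by 0.48 ± 0.48 (SD, n = 20), in 17 of 20 mice (adjusted p = 0.0006, permutation test). The order of Plscr3 and Plscr1l1 differed between diets and is given as a description. At 0% RPS Plscr1l1 was at 5.50 ± 2.11 CPM per kb and Plscr3 at 4.27 ± 1.06 (SD, n = 5), and Plscr3 was the higher of the pair in 1 of 5 mice. At 10% RPS they were at 1.44 ± 0.752 and 3.81 ± 0.330 CPM per kb (SD, n = 5), with Plscr3 higher in 5 of 5 mice, as it was in 4 of 5 at both 2 and 5% RPS. Over all diets Plscr3 was higher by 0.83 ± 1.02 on the log2 scale (SD, n = 20), and by 0.40 with the longest transcript in place of all exons.

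**Figure D1:**
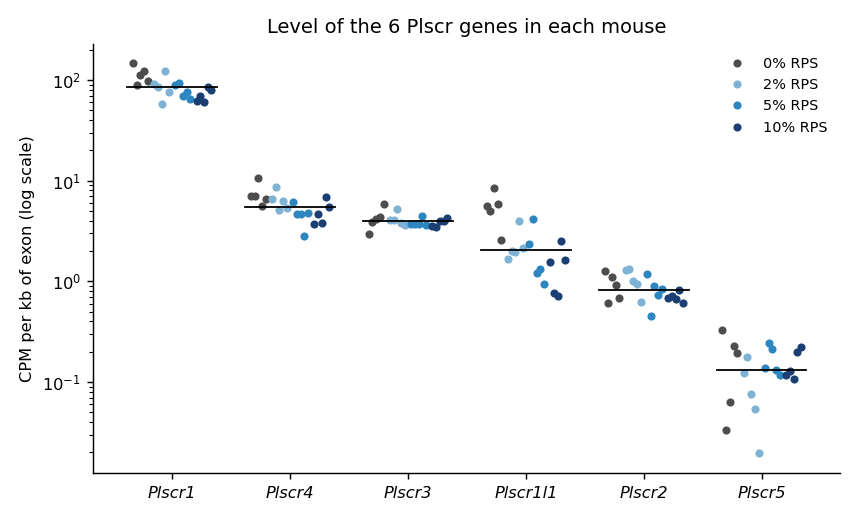
CPM per kb of exon (log axis) of the 6 Plscr genes, 1 point per mouse coloured by diet, with the median over 20 mice as a black line. Plscr1 lies above all other Plscr genes in every mouse, and the points of Plscr1l1 at 0% RPS lie mostly above those of the other diets.

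Plscr1 made up 86.0% ± 2.81 (SD, n = 5) of the summed per-kilobase level of the 6 genes at 0% RPS and 86.6% ± 0.817 at 10% RPS. The share of Plscr1l1 was 4.15% ± 1.45 at 0% RPS and 1.71% ± 0.715 at 10% RPS. Plscr4 held 5.67% ± 1.54 and 5.90% ± 0.683, and Plscr3 3.38% ± 1.22 and 4.72% ± 0.623 on these diets. The family's sum was thus mostly Plscr1 on each diet, and Plscr1l1 was a minor component.

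Plscr1, the calcium-dependent and interferon-inducible founder of the family, was lower at 10% RPS than at 0% RPS, without overlap between the groups. In the 5 mice fed 0% RPS it was measured at 408, 252, 316, 341 and 273 CPM. The mice fed 2% RPS had 255, 236, 163, 343 and 211 CPM. The mice fed 5% RPS had 248, 261, 193, 212 and 181 CPM, and those fed 10% RPS had 172, 193, 171, 236 and 221 CPM. The 10% RPS group lay entirely below the 0% RPS group, with a gap between 236 and 252 CPM, whereas 4 of 5 mice at 5% RPS and 3 of 5 at 2% RPS were below the lowest control. The means were 318 ± 61.2, 242 ± 66.4, 219 ± 34.6 and 198 ± 29.3 CPM (SD, n = 5) at 0, 2, 5 and 10% RPS. Against 0% RPS, the log2 fold change of Plscr1 was -0.40 (SE 0.17) at 2%, -0.54 (SE 0.17) at 5% and -0.68 (SE 0.17) at 10% RPS, the last a level 1.60-fold lower. The step from 2 to 5% RPS was -0.14 and that from 5 to 10% RPS was -0.14 as well, each smaller than its SE of 0.17.

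Plscr1l1, a Plscr1-like gene of the same cluster, had the largest difference of the members and few counts. Its levels at 0% RPS were 11.2, 9.95, 17.0, 11.7 and 5.16 CPM. They were 3.36, 4.0, 3.95, 7.97 and 4.26 CPM at 2% RPS and 4.74, 8.35, 2.41, 2.67 and 1.88 CPM at 5% RPS. At 10% RPS they were 3.14, 1.52, 1.42, 5.09 and 3.26 CPM. Mouse 5 was the lowest of the controls, and the 10% RPS group lay wholly below it, although its highest value, 5.09 CPM, came close. At 2 and 5% RPS, 4 of 5 mice each were below that control. These levels rest on 180 to 453 counts per mouse at 0% RPS and on 45 to 108 at 10% RPS. The means were 11 ± 4.23, 4.71 ± 1.85, 4.01 ± 2.66 and 2.89 ± 1.5 CPM (SD, n = 5) at 0, 2, 5 and 10% RPS. The log2 fold change was -1.22 (SE 0.41) at 2%, -1.43 (SE 0.41) at 5% and -1.94 (SE 0.42) at 10% RPS, where the level was 3.85-fold lower. Ordered from the most negative log2 fold change at 10% RPS, Plscr1l1 was number 24 of the 15348 genes and Plscr1 number 311. The rule had used this contrast, so the ranks are a description.

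Plscr3, the mitochondrial member, differed little between diets. Its levels were 15.2, 20.1, 21.4, 22.4 and 30.2 CPM at 0% RPS and 20.9, 20.6, 26.9, 19.3 and 18.5 CPM at 2% RPS. The mice fed 5% RPS had 19.1, 19.2, 19.0, 22.7 and 18.7 CPM, and those fed 10% RPS had 18, 17.6, 20.3, 20.2 and 21.6 CPM. No RPS mouse was below the lowest control, mouse 1, and the groups overlapped throughout. At 10% RPS the log2 fold change was -0.16 (SE 0.14, 95% interval -0.43 to 0.10, adjusted p = 0.538, edgeR quasi-likelihood test). At 5% RPS it was -0.15 (SE 0.14, adjusted p = 0.723, edgeR) and at 2% RPS -0.04 (SE 0.14, adjusted p = 0.990, edgeR).

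Plscr4, a widely expressed member of the plasma membrane, had lower means on the higher doses that did not pass the threshold. Its levels were 43.1, 43.4, 64.3, 34.1 and 39.8 CPM at 0% RPS and 40.6, 52.8, 31.0, 38 and 33.0 CPM at 2% RPS. They were 37.7, 28.8, 28.5, 17.1 and 28.9 CPM at 5% RPS and 22.5, 28.2, 23.4, 42.1 and 33.6 CPM at 10% RPS. At both 5 and 10% RPS, 4 of 5 mice were below the lowest control, and mouse 4 at 10% RPS lay among the controls. The log2 fold change was -0.59 at 10% RPS (SE 0.21, 95% interval -1.0 to -0.17, adjusted p = 0.140, edgeR), -0.67 at 5% RPS (SE 0.21, adjusted p = 0.143, edgeR) and -0.20 at 2% RPS (SE 0.21, adjusted p = 0.962, edgeR). A linear fit over the percentage of RPS gave Plscr4 a slope of -0.06 log2 per percent (adjusted p = 0.124, edgeR), which passed the threshold in 1 of the 20 fits that left out a mouse, that without mouse 4 fed 10% RPS (-0.08, adjusted p = 0.0364, edgeR). The other Plscr genes are Plscr2, at 4.04 ± 1.22 CPM on 0% RPS and 3.08 ± 0.357 CPM on 10% RPS (SD, n = 5; log2 fold change -0.39, adjusted p = 0.389, edgeR), and Plscr5, which stayed between 0.0233 and 0.391 CPM in all mice.

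**Figure D2:**
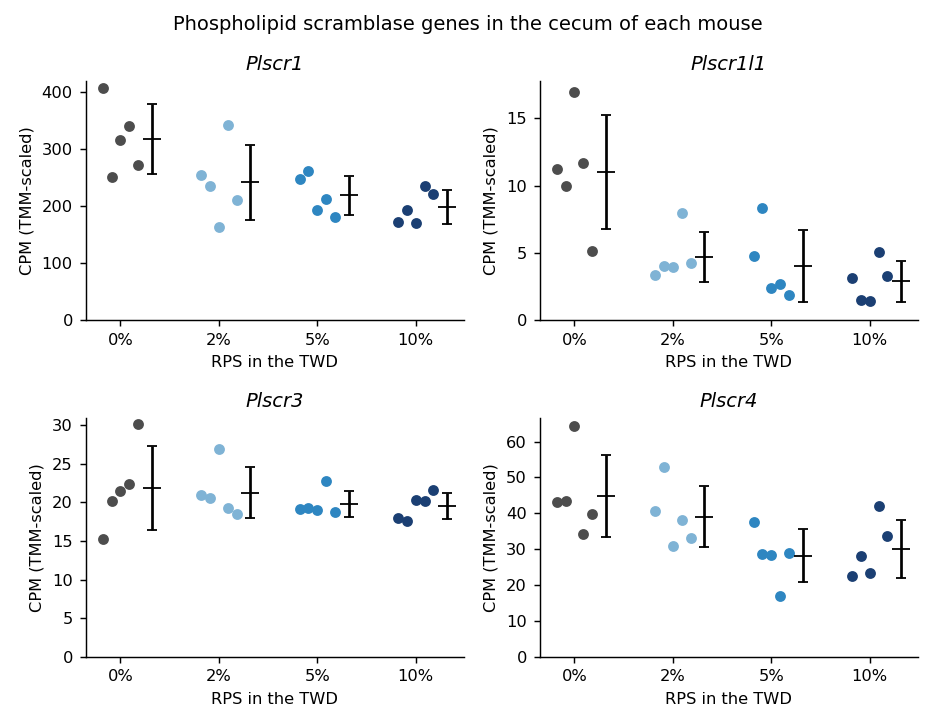
Level (TMM-scaled CPM) of each member in each mouse by percentage of RPS in the TWD, with the mean and SD (n = 5) beside each group. The Plscr1 and Plscr1l1 points at 10% RPS all lie below those at 0% RPS, while those of Plscr3 and Plscr4 overlap.

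A gene was counted as past the threshold at an adjusted p of at most 0.05 and a fold change of at least 1.5. At 10% RPS, 2 of the 4 members, Plscr1 and Plscr1l1, were past it in the lower direction, where 0.495% of all genes were. As these genes were chosen by this contrast, nothing is read from the count. The count was 1 without mouse 1 or 5 fed 0% RPS or mouse 1 or 2 fed 2% RPS, and 0 without mouse 3 or 4 fed 0% RPS or mouse 1, 2, 3 or 5 fed 10% RPS. All mice fed 10% RPS were below all mice fed 0% RPS for 2 of 4 members and for 3.2% of all genes, and again the rule had used this contrast. At 5% RPS no member was past the threshold in the edgeR test (0.0977% of genes were, in the lower direction) and none had all mice below the controls (2.04% of genes). At 2% RPS no member and 0% of genes passed, with 886 genes at an unadjusted p under 0.05 in edgeR and 5 genes past the threshold in DESeq2, and no member had all mice below the controls (0.671% of genes). Between 10 and 5% RPS and between 5 and 2% RPS, 0% of genes passed in edgeR, with 428 and 520 at an unadjusted p under 0.05. DESeq2 gave 0 genes for the former and 0 for the latter.

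In the linear fit over the percentage of RPS, which had no fold change threshold, Plscr1l1 was past the threshold with a slope of -0.18 log2 per percent (SE 0.04), where 0.73% of all genes were past it in the lower direction. The rule had used the fall with starch, so nothing is read from this count. The slope of Plscr1 was -0.06 (SE 0.02) and that of Plscr3 -0.02 (SE 0.01), and neither passed. The count of 1 member became 0 without mouse 1, 3, 4 or 5 fed 0% RPS, mouse 1, 2 or 4 fed 2% RPS, mouse 1 or 3 fed 5% RPS, or mouse 1, 2, 3 or 5 fed 10% RPS. It became 2 without mouse 3 or 5 fed 2% RPS and 3 without mouse 4 fed 10% RPS. No protein-coding neighbour outside the family was past the threshold at 10% RPS. Plod2, beyond Plscr4, had a log2 fold change of -0.13 (SE 0.18), Tbc1d2b, before Plscr5, 0.33 (SE 0.20), Tmem256 0.00 (SE 0.18) and Tnk1 -0.16 (SE 0.14), with adjusted p of 0.368 to 0.995 in edgeR.

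Markers of other cell types were summed in the same mice. At 10% RPS, 0.547% of all genes were past the threshold in the higher and 0.495% in the lower direction, 50.9% had a higher estimate, and the list counts stand beside these shares. Summed smooth muscle markers ranged from 2620 to 6118 CPM at 0% RPS and from 4348 to 7238 CPM at 10% RPS, where 7 of 7 had a higher estimate and 1, Actg2, was past the threshold in edgeR. The count was 0 without mouse 3, 4 or 5 fed 0% RPS or mouse 1, 2, 3 or 5 fed 10% RPS, and 2, with Cnn1, without mouse 4 fed 10% RPS and in DESeq2. Summed goblet cell markers ranged from 8389 to 11426 CPM at 0% RPS and from 6740 to 8132 CPM at 10% RPS, with 7 of 7 estimates lower and 1, Zg16, past the threshold. The count was 0 without mouse 5 fed 0% RPS or mouse 1, 2 or 3 fed 10% RPS, and 3, with Spdef and Tff3, without mouse 4 fed 10% RPS. Summed epithelial markers ranged from 12831 to 16587 CPM at 0% RPS and from 11372 to 15801 CPM at 10% RPS, with 8 of 9 estimates lower and none past the threshold. All markers of these lists averaged at least 1 CPM on each diet. With the log2 sum of the smooth muscle markers as a covariate, added after seeing the data, the log2 fold change at 10% RPS was -0.45 (SE 0.17) for Plscr1, -1.18 (SE 0.36) for Plscr1l1, -0.28 (SE 0.15) for Plscr3 and -0.33 (SE 0.22) for Plscr4. None of the 4 passed in that fit, and 0 of 15348 genes did. With the epithelial sum as the covariate the values were -0.50 (SE 0.16), -1.75 (SE 0.45), -0.13 (SE 0.16) and -0.57 (SE 0.23), none of the 4 passed, and 7 of 15348 genes did. The values of Plscr1 and Plscr1l1 were thus smaller in size beside muscle markers and stayed below 0. The covariate differs between diets itself, so the diet and the tissue make-up cannot be told apart by it.

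**Figure D3:**
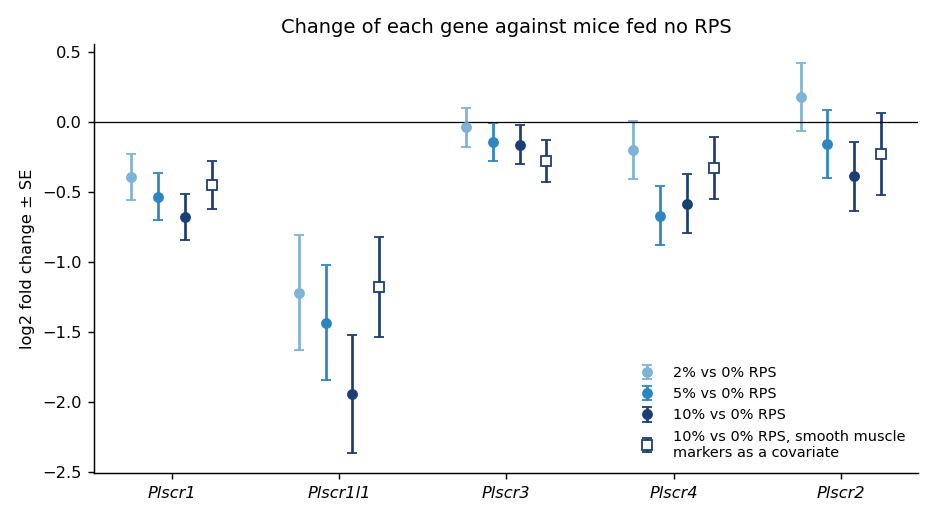
Log2 fold change ± SE of the 4 members and Plscr2 against mice fed 0% RPS, at 2, 5 and 10% RPS (filled circles) and at 10% RPS with the smooth muscle markers as a covariate (open squares). Plscr1l1 reaches -1.94 and moves to -1.18 with the covariate, Plscr1 moves from -0.68 to -0.45, and Plscr3 lies between -0.28 and -0.04.

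Whether members vary together among mice on the same diet was not used to choose them. After each diet's mean was subtracted from log2 CPM, Plscr1 and Plscr1l1 were correlated over the 20 mice, with Pearson's r = 0.63 (p = 0.00314, adjusted p = 0.0188) and Spearman's rho = 0.70 (p = 0.00196, adjusted p = 0.0118), by 2-sided permutation within diets over 6 pairs of members. Without the 2 mice farthest from the median of Plscr1, r was 0.64. Within the 5 mice of each diet r was 0.43, 0.68, 0.96 and 0.69 at 0, 2, 5 and 10% RPS. Mouse 4 at 2% RPS, mouse 2 at 5% RPS and mouse 4 at 10% RPS were above their diet's mean in both genes, by 0.55, 0.27 and 0.26 for Plscr1 and by 0.82, 1.26 and 0.96 for Plscr1l1 on the log2 scale. Without mouse 4 at 2% RPS r was 0.56 (adjusted p = 0.0942, permutation test), and without mouse 2 at 5% RPS it was 0.59 (adjusted p = 0.0558, permutation test), and neither was below 0.05. With the smooth muscle markers also regressed out it was 0.46 (adjusted p = 0.352, permutation test), and with the epithelial markers 0.64 (adjusted p = 0.0178, permutation test).

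**Figure D4:**
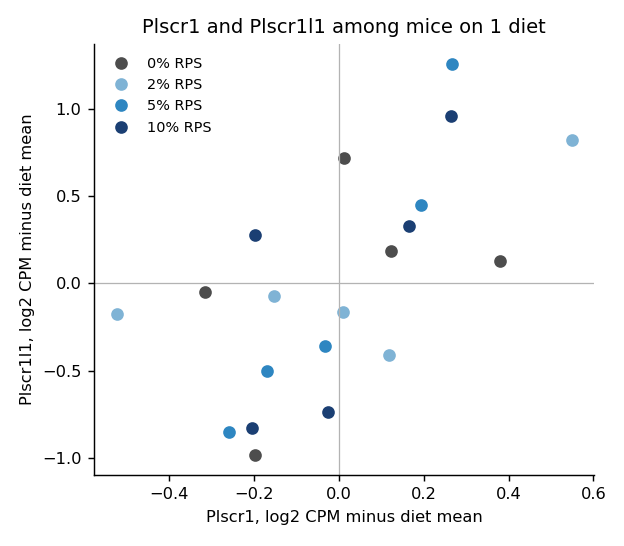
Plscr1l1 against Plscr1 in each mouse as log2 CPM minus the mean of the mouse's diet, coloured by diet. Mice above their diet's mean in Plscr1 tend to be above it in Plscr1l1 (r = 0.63, 20 mice).

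The other 5 pairs did not pass the threshold. Pearson's r was -0.41 for Plscr1 and Plscr3 (rho -0.19), 0.37 for Plscr1 and Plscr4 (rho 0.42) and 0.41 for Plscr1l1 and Plscr4 (rho 0.38). For Plscr1l1 and Plscr3 it was -0.24 (rho -0.14) and for Plscr3 and Plscr4 -0.19 (rho -0.06), with adjusted p of 0.185 to 0.449 for r and 0.267 to 0.820 for rho by the same permutation test. Plscr3 was the member with negative coefficients to each of the others. Its negative coefficient to Plscr1 was seen at 0 and 2% RPS (r = -0.64 and -0.69, 5 mice each) and not at 5 and 10% RPS (0.03 and 0.50).

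The genes whose log2 CPM was most like each member over the 20 mice are given as a description, since these mice share their diets and libraries. For Plscr1 they were Galnt3, which starts O-linked glycosylation of mucin-type proteins (r = 0.92), Cldnd1, a claudin-related membrane protein (0.92), and Gpat3, an acyltransferase of glycerolipid synthesis (0.92). After subtracting diet means they were Tuba1c, an alpha tubulin (0.92), Paqr8, a membrane progesterone receptor (0.91), and Dynll1, a dynein light chain (0.91). For Plscr1l1 they were Actg1, a cytoplasmic actin (r = 0.86), Olr1, a receptor for oxidised LDL (0.86), and Prkcsh, a subunit of the endoplasmic reticulum's glucosidase (0.85), and after subtraction Rps27a (0.80), Ggct (0.75) and Prkcsh (0.75). Of the Plscr1l1 genes, Prkcsh was named by both measures. Plscr3 was most like Bckdk, the kinase of branched-chain keto acid dehydrogenase (0.87), Rps26 (0.86) and Polr2e (0.85), and after subtraction Bckdk (0.91), Acy3 (0.91) and Pigq (0.90). Plscr4 was most like Mgst2, a glutathione transferase of membranes (0.89), Dgat2, the last enzyme of triglyceride synthesis (0.86), and Ppp1r2 (0.86), and after subtraction Flcn (0.87), Cobll1 (0.85) and Tfrc, the transferrin receptor (0.83).

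Other proteins that move or sense membrane lipids were counted from lists of genes, with calls from edgeR unless DESeq2 is named. None of the 14 tested genes of the XKR and TMEM16 scramblases and their partners was past the threshold at 10% RPS in edgeR, and their median log2 fold change was 0.03, against 0.00 over all genes. The lowest unadjusted p-values of that list belonged to Xkr9, a caspase-activated scramblase (4.81 ± 0.961 CPM at 0% and 2.57 ± 0.721 at 10% RPS, SD, n = 5, adjusted p = 0.0816 in edgeR and 0.0247 in DESeq2, where it passed, as it did in edgeR without mouse 4 fed 5% RPS, at 0.0469, or mouse 4 fed 10% RPS, at 0.0449), and Ano7 (37.5 ± 4.74 and 27.4 ± 2.57 CPM, adjusted p = 0.105, edgeR). None of the 4 scramblases of the autophagy list (median -0.19) was past the threshold, with Vmp1 at -0.26 (SE 0.15) and Atg9a at -0.11 (SE 0.10). The P4-ATPase flippases carry lipids inward, some but not all of them phosphatidylserine. None of the 14 tested (median 0.00) was past the threshold. Of the flippases, Atp8b2 had a log2 fold change of 0.33 (adjusted p = 0.147, edgeR) and Atp10d of 0.66 (adjusted p = 0.147, edgeR). Their partner subunits Tmem30a (0.00) and Tmem30b (0.05) did not pass either.

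Of 8 ABC lipid exporters, 1 fell at 10% RPS, where 0.495% of all genes were past the threshold in the lower direction, and none rose. The list median was 0.05. Abcb1a, the multidrug efflux pump P-glycoprotein, was at 910 to 1201 CPM at 0% RPS and 451 to 710 CPM at 10% RPS, so the groups did not overlap (as for 3.2% of all genes in this direction). Its log2 fold change was -0.78 (SE 0.14, adjusted p = 0.0111, edgeR) at 10% RPS. It passed there in 20 of 20 fits that left out a mouse, and not with the smooth muscle (-0.60, adjusted p = 0.0814, edgeR) or epithelial markers (-0.66, adjusted p = 0.0508, edgeR) as a covariate. At 5% RPS it was -0.65 (SE 0.14, adjusted p = 0.0434, edgeR), past the threshold in 7 of the 20 fits that left out a mouse. It did not pass with the 2 diets alone (adjusted p = 0.0524, edgeR) or with the epithelial (-0.53, adjusted p = 0.172, edgeR) or smooth muscle covariate (-0.42, adjusted p = 0.502, edgeR). The call was also lost without any 1 mouse fed 0% RPS, without mouse 1 or 2 fed 2% RPS, mouse 2, 3, 4 or 5 fed 5% RPS, or mouse 1 or 5 fed 10% RPS, with values of -0.77 to -0.57 and adjusted p of 0.0170 to 0.161 over the 20 edgeR fits. The summed markers of absorptive colonocytes, which carry this pump, ranged from 33630 to 38629 CPM at 0% and from 22220 to 34714 CPM at 10% RPS. Of the 7, 1, Cyp2c55, was past the threshold in the lower and 1, Slc26a3, in the higher direction (in 20 and 7 of the 20 fits that left out a mouse). Neither was past it with a marker covariate, although the values changed little. Cyp2c55 went from -0.66 to -0.56 with the epithelial (adjusted p = 0.0330, edgeR, below the fold threshold) and -0.59 with the smooth muscle covariate (adjusted p = 0.0770, edgeR). Slc26a3 went from 0.61 to 0.62 and 0.67 (adjusted p = 0.140 and 0.106, edgeR). With the 2 diets alone Slc26a3 did not pass either (0.62, adjusted p = 0.0674, edgeR). The part of these markers in the Abcb1a result was not tested. Of the 15 receptors and bridging proteins for phosphatidylserine none passed (median 0.10), and 5 had a higher estimate at an unadjusted p under 0.05 against none lower, where 9.74% of all genes were higher and 9.75% lower at that p. Among them were Mertk, an engulfment receptor (0.30, SE 0.10, adjusted p = 0.123, edgeR), and Havcr1. Havcr1 was at only 0.0636 ± 0.0586 CPM at 0% and 0.861 ± 0.485 CPM at 10% RPS (SD, n = 5, adjusted p = 0.0793, edgeR, and 0.0269, past the threshold, without mouse 3 fed 2% RPS). At so low a level on 0% RPS, Havcr1 passed the filter on low counts only through mice fed RPS. Its p-values and its place among the 5 are thus a description.

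The 3 genes of phosphatidylserine synthesis and decarboxylation had a median of -0.06 and none passed, with Ptdss2 at -0.11 (SE 0.08) and Ptdss1 at -0.06 (SE 0.10). Among the 10 genes of cardiolipin metabolism, the lipid handled by PLSCR3, none passed at 10% RPS (median -0.09). Hadha, the mitochondrial trifunctional enzyme of fatty acid oxidation, was at 549 ± 32.7 CPM at 0% and 431 ± 31.0 CPM at 10% RPS (SD, n = 5), a log2 fold change of -0.35 (SE 0.07, adjusted p = 0.0267, edgeR) below the fold threshold. Its slope in the linear fit was -0.03 log2 per percent (adjusted p = 0.0488, edgeR), and this call was lost in 14 of the 20 fits that left out a mouse, with adjusted p of 0.0315 to 0.140 in edgeR, and without the filter on low counts (adjusted p = 0.0606, edgeR). The mice were 1, 3, 4 or 5 fed 0% RPS, 1, 2 or 4 fed 2% RPS, 1, 2, 3 or 5 fed 5% RPS and 1, 3 or 5 fed 10% RPS. Prelid1, which carries phosphatidic acid from the outer to the inner mitochondrial membrane, had -0.31 (SE 0.09, adjusted p = 0.0825, edgeR). Of the 10 genes listed for a link to PLSCR1, not all of them known as binding proteins, 5 had a lower estimate, and none passed. Itpr1, an inositol trisphosphate receptor, had 0.28 (SE 0.09, adjusted p = 0.0876, edgeR) and the kinase Src -0.25 (SE 0.08, adjusted p = 0.0956, edgeR).

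Type 1 interferon-stimulated genes were counted as a list because Plscr1 belongs to this class, with Plscr1 itself left out of the list. None of the 30 was past the threshold at 10% RPS in edgeR, in either direction, whereas DESeq2 called 5 of them higher and none lower, with 1.43% of all genes higher in that test. These were Irf7, a transcription factor of the interferon response (log2 fold change 0.79, adjusted p = 0.0431, DESeq2), Dtx3l, a ubiquitin ligase (0.72, adjusted p = 0.0286), the antiviral GTPase Mx1 (0.69, adjusted p = 0.0244), Helz2 (0.65, adjusted p = 0.0115) and the nucleotide kinase Cmpk2 (0.59, adjusted p = 0.0167). The edgeR count was 5 higher without mouse 2 fed 0% RPS or mouse 4 fed 10% RPS, in each case Cmpk2, Dtx3l, Helz2, Mx1 and Rigi, and 1, Helz2, without mouse 2 or 3 fed 2% RPS or mouse 4 fed 5% RPS. In edgeR their median log2 fold change was 0.38, against 0.00 over all genes, 27 of 30 estimates were higher, and 10 had an unadjusted p under 0.05, each of them higher, where 50.9% of all genes had a higher estimate and 9.74% a higher one at that p. Helz2, a helicase co-activator, was at 107 ± 13.7 CPM at 0% and 168 ± 46.9 CPM at 10% RPS (SD, n = 5, adjusted p = 0.0511, edgeR). Rigi, the RNA sensor RIG-I, was at 18.6 ± 4.88 and 27.2 ± 2.61 CPM (SD, n = 5, adjusted p = 0.0586, edgeR). At 5% RPS the median in edgeR was 0.45 and 13 genes had an unadjusted p under 0.05, each with a higher estimate, as had 6.74% of all genes. None of the 30 was past the threshold there in edgeR. DESeq2 called 1 higher, Irf7 (log2 fold change 1.05, adjusted p = 0.00791, DESeq2), with 0.849% of all genes higher in that test. The comparisons at 5 and 10% RPS share their control mice. Summed macrophage markers ranged from 124 to 285 CPM at 0% and from 172 to 316 CPM at 10% RPS, and summed B cell markers from 5.82 to 216 and from 15.5 to 295 CPM, with none of the 8 and 6 markers past the threshold in edgeR. Without mouse 2 fed 0% RPS, 2 macrophage markers, Csf1r and Lyz2, were past it in the higher direction. None of these markers averaged under 1 CPM, and their part in the values of the interferon-stimulated genes was not tested.

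**Figure D5:**
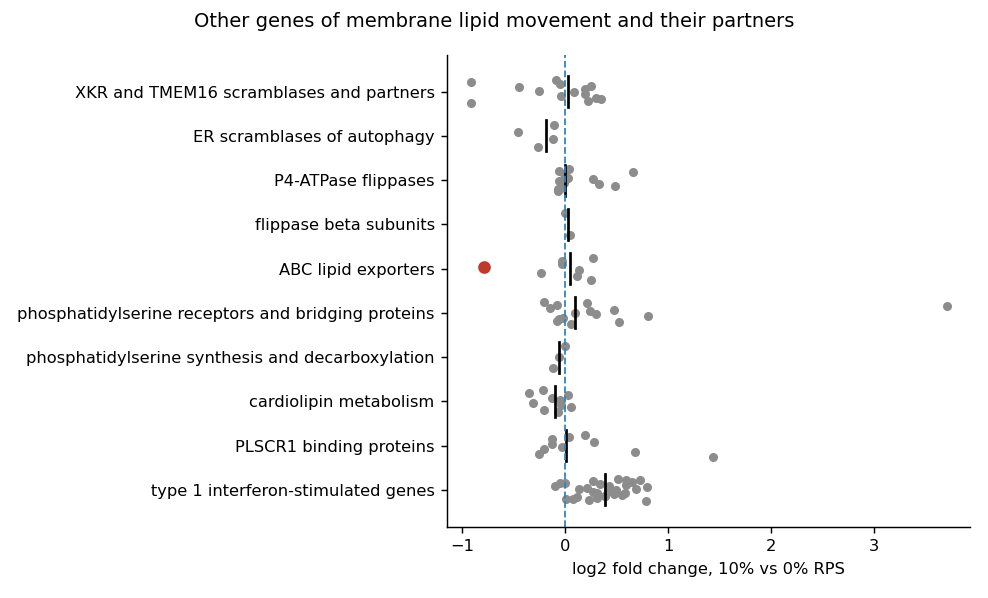
Log2 fold change at 10% against 0% RPS of each tested gene in 10 lists of membrane lipid genes, partners and interferon-stimulated genes (points), with list medians as black bars and the median of all genes as a dashed line. The red point, Abcb1a at -0.78, is the only gene of these lists past the threshold in edgeR (DESeq2 also called Xkr9 lower and 5 interferon-stimulated genes higher), and the interferon-stimulated genes have the highest list median, 0.38.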

How the data were processed

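Cecum RNA of 20 mice, 5 per diet, was measured by RNASeq. The authors deposited a table of raw counts, for which reads from stranded mRNA libraries were trimmed for quality, filtered for ambiguous bases and mapped to GRCm39 in the CLC Genomics Workbench. The annotation release, the strand setting and the treatment of reads with several matches are not given in the sources used here. Diets came from the sample labels, and mice were numbered 1 to 5 within a diet in accession order, which pairs no mice. Cecum alone was analysed here.

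Names, exons, promoters and coding sequences came from GENCODE mouse release 39 on GRCm39, which held 19827 of the 19887 identifiers. Low genes were dropped by filterByExpr of edgeR (at least 10 counts per sample and 15 in total), and counts were scaled by TMM and fitted with a robust quasi-likelihood model over the 4 diets (edgeR 4.0.16, R 4.3.3), with p-values adjusted by Benjamini-Hochberg over all 15348 genes. CPM was scaled by TMM, and log2 CPM used a prior count of 2. Each SE is the absolute log2 fold change divided by the root of its F value. Level order and within-diet correlation were tested with 100000 permutations (Python 3.11.15, numpy 2.4.6, scipy 1.17.1). Per-kilobase levels used the union of exons. The genes named were all Plscr genes of the table, those past the threshold or otherwise the 2 with the lowest p in each list, the 3 most alike to each member, and the chromosomal neighbours. Alternatives were other size factors, DESeq2 1.42.0, no filter, the 2 diets alone, the rank of the dose, a prior count of 0.5, the longest transcript, leaving out each mouse, and, added after seeing the data, marker sums as covariates. The fitting code was tested on simulated data. The members and lists were chosen with earlier results of these data known. Intervals cover the spread between mice, and depth ranged from 14967798 to 42687283 counts.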

Additional observations from a re-analysis of the deposited data

Results flagged for a closer look

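In 24 groups of 5 mice (6 Plscr genes on 4 diets), 3 values stood apart from their group by more than Dixon's 95% critical value of 0.71, the gap to the nearest mouse divided by the group's range. Chance flags about 1 in 20 such groups. Plscr1l1 in mouse 4 fed 2% RPS was at 7.97 CPM, with the nearest mouse at 4.26 CPM; the same mouse had the highest Plscr1 of its diet, 343 CPM. Plscr3 in mouse 3 fed 2% RPS was at 26.9 CPM, with the nearest mouse at 20.9 CPM, and Plscr3 in mouse 4 fed 5% RPS was at 22.7 CPM, with the nearest mouse at 19.2 CPM.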

How the results depend on the processing

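The members past the threshold numbered 2 at 10% RPS under all 4 alternatives of tool, scaling, filter and samples. They numbered 0 with either marker covariate and between 0 and 2 when single mice were omitted. Plscr1 and Plscr1l1 were chosen by this contrast, so nothing is read from these counts. At 5% RPS DESeq2 gave 1, Plscr1l1, in place of 0, and as this gene was chosen by its fall with starch the count is a description. The linear fit gave 1 member, 0 without the filter on low counts, 2 with DESeq2, 2 with the rank of the dose, and 0 to 3 when single mice were omitted. Without 1 mouse, the log2 fold change at 10% RPS ranged from -0.75 to -0.58 for Plscr1 and from -2.23 to -1.73 for Plscr1l1. The within-diet correlation of Plscr1 and Plscr1l1 ranged from 0.56 to 0.69 without 1 mouse and was 0.46 with the smooth muscle markers regressed out. Plscr3 exceeded Plscr1l1 by 0.40 with the longest transcript as the length. Signs reversed near 0 for Plscr3 without mouse 5 fed 0% RPS (0.0057 at 5% RPS, where the range was -0.25 to 0.0057, and 0.11 at 2% RPS, where it was -0.15 to 0.11) and without mouse 5 fed 2% RPS (0.0080 at 2% RPS), for its correlation with Plscr1l1 without mouse 5 fed 0% RPS (0.0071, with a range of -0.32 to 0.0071), and for Plscr2 at 5% RPS with the smooth muscle covariate (0.035). The cause was not tested. Over all genes, 76 were lower at 10% RPS, against 154 with DESeq2, 5 with the epithelial and 0 with the smooth muscle covariate. At 5% RPS the lower genes numbered 15, against 96 with DESeq2, 37 with the 2 diets alone, 1 with the epithelial and 0 with the smooth muscle covariate, and in the linear fit 112, against 413 with DESeq2, 336 with the rank of the dose and 66 without the filter. Without 1 mouse the lower genes numbered 10 to 139 at 10% RPS, 0 to 46 at 5% RPS and 0 to 322 in the linear fit. No paired analysis was possible because the labels share no replicate numbers between diets. A count of 3, taken as the lowest detectable, corresponds to 0.190 CPM in the smallest library, near the level of Plscr5.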
